A study of Mus musculus with 6 samples.

Results

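The dystrophin glycoprotein complex was followed through 9 of its genes, *Dmd*, *Utrn*, *Dag1*, *Sgca*, *Sgcb*, *Sgcd*, *Sgce*, *Sntb1* and *Dtna*, which were taken by gene symbol out of 54115 annotated genes. No threshold on these data enters that rule, but the genes were picked with earlier results of the data known. RNA-sequencing was performed on satellite cells, which are muscle stem cells, isolated from uninjured hindlimb muscle of mice of the C57BL/6J strain and used without culture. Cells were sorted as positive for α7-INTEGRIN and CD34 and negative for CD31, CD11b, SCA-1 and CD45, and 15 ng of RNA was used per library. There were 3 libraries of Pax7WT cells and 3 of Pax7KR cells. Pax7KR mice are homozygous for an allele of *Pax7*, made with CRISPR-Cas9, in which an acetylated lysine of the PAX7 protein is replaced by arginine. The allele is carried in every cell from conception and is not limited to satellite cells, and the Pax7WT mice were wild-type littermates. Per the study's methods the mice were between 6 and 8 weeks old, and no agent or injury was applied to either group. The comparison asks how the loss of this acetylation site changes transcript levels of the complex in freshly isolated cells. The labels describe biological replicates without naming the animals behind them, so p-values measure the spread between these libraries.

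Dystrophin, encoded by *Dmd*, ties the actin cytoskeleton to dystroglycan, which spans the membrane and binds laminin and other matrix proteins outside the cell. Sarcoglycans stabilise dystroglycan in the membrane, while syntrophins and dystrobrevins bind dystrophin from the inside and recruit signalling proteins. In muscle fibres the complex protects the membrane during contraction. In satellite cells dystrophin is known as a regulator of polarity and asymmetric division through the kinase MARK2, and β1-syntrophin holds the kinase p38γ, which keeps the methyltransferase CARM1 from methylating PAX7 and so from inducing *Myf5*.

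*Dmd* produces proteins of different length from separate promoters, and the results below turn on 2 of them. The gene lies on chromosome X (82948870 to 85206141, plus strand, build GRCm38). The full-length transcript Dmd-203 starts at 82948903 and has 79 exons. The short transcript Dmd-201 starts at 85048413, which is 2099.5 kb further downstream, inside the gene, and has 18 exons. It encodes a dystrophin that lacks the actin-binding amino terminus and most of the rod, is found in many non-muscle tissues and retains the binding sites for syntrophin and dystrobrevin. The 250 bases before each of these annotated starts in the RefSeq table of promoters are shown because the values of the transcripts placed there differ in what follows. The upstream window spans chrX:82948620-82948869 and the internal one chrX:85048045-85048294, both 5′ to 3′ on the plus strand of GRCm38.p6. Capitals mark matches, on either strand, to 4 motifs, which are the TATA box TATAAA, the E-box CANNTG bound by the MyoD family, the homeodomain motif TAATTA and the GC box GGGCGG.
Dmd upstream promoter: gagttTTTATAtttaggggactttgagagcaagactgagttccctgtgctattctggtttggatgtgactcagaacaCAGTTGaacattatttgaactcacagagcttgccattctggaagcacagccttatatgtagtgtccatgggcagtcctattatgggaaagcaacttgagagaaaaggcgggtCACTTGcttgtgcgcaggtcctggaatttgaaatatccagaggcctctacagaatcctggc
Dmd internal promoter: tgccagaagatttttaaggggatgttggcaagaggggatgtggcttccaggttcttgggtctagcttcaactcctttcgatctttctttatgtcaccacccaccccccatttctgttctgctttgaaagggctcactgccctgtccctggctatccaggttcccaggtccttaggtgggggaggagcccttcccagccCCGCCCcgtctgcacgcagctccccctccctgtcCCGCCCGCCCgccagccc
The upstream window holds 1 match to TATAAA, as its reverse complement, and 2 to CANNTG. The TATAAA match lies near the 5′ end of the window, away from the annotated start, and whether it acts as a TATA box was not tested. The internal window holds 3 matches to GGGCGG, of which the last 2 overlap, and none to the other motifs. Neither window holds TAATTA. Among 32841 promoter windows of the same length, 12.4% hold TATAAA, 66.2% CANNTG, 4.84% TAATTA and 32.7% GGGCGG. Less GC than in the upstream window was found in 24.4% of these windows, and less than in the internal window in 72.1%. The annotated start of Dmd-203 lies 34 bases and that of Dmd-201 lies 119 bases past the end of its window, as the 2 annotations place the starts differently.

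The libraries held between 17822367 and 27908054 estimated reads, of which 17.4% to 19.6% lay on the 50 highest genes. *Pax7* itself was at 1551 ± 101 CPM (SD, n = 3) in Pax7WT and 1502 ± 119 CPM (SD, n = 3) in Pax7KR cells, and reads per gene do not show the substitution. CPM are reads of a gene scaled to a fixed library size after TMM normalization. The summed level of 12 satellite cell markers was 4364 to 4942 TPM in Pax7WT and 4884 to 4971 TPM in Pax7KR libraries. TPM are the values given by the authors, summed per gene. They are corrected for transcript length and scaled to a fixed total without TMM normalization. Genes listed as markers of other cells were also read, and their part in the results was not tested. As each library pools many cells, these sums do not show which cells, satellite cells among them, held the reads. Sums ran from 125 to 163 TPM in Pax7WT and 129 to 156 TPM in Pax7KR libraries for 16 myofibre genes, and from 96 to 123 TPM and 80 to 123 TPM for 12 Schwann cell genes. Sums of 12 genes each ran from 1125 to 1248 TPM and 1062 to 1194 TPM for smooth muscle and pericytes, from 1940 to 2074 TPM and 2076 to 2239 TPM for fibro-adipogenic cells, and from 25 to 27 TPM and 19 to 27 TPM for immune cells. Much of the smooth muscle and fibro-adipogenic sums came from *Notch3*, *Des*, *Gsn*, *Col3a1* and *Dpt*, each above 290 TPM on average. Of the smooth muscle and pericyte genes, 11 of 12 had a negative log2 fold change. Of the endothelial genes, 11 of 12 had a positive one, with sums of 192 to 272 TPM in Pax7WT and 227 to 343 TPM in Pax7KR libraries and a median log2 fold change of 0.39. Of the genes of these 2 lists, 0 had an unadjusted p under 0.05. Of the genes of the markers sorted against, *Ptprc* (CD45) was at most at 0.559 TPM and *Itgam* (CD11b) at most at 0.623 TPM, while *Pecam1* (CD31) was at 10.3 to 26.5 TPM and *Ly6a* (SCA-1) at 12.1 to 22.4 TPM. Of the immune genes, *Cd3e* had 0 reads in all 6 libraries, whereas *Lyz2* was at 5.87 to 9.77 TPM and *Cd79a* at 4.86 to 8.5 TPM. The 4 Y-linked genes measured were lower in Pax7KR replicate 2 than in the other 5 libraries, for instance *Ddx3y* at 24.4 TPM against 53.5 to 61.9 TPM, while *Xist* was at most at 1.08 TPM in any library. The fold changes, adjusted p-values and read share of *Dmd*, an X-linked gene, are therefore also given without that library.

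The 9 genes covered more than 3 orders of magnitude in level, led by the gene of dystroglycan. *Dag1*, whose precursor is cut into α- and β-dystroglycan, was at 907 ± 61.7 TPM (SD, n = 6) and lay above the others in all 6 libraries. *Dmd* was second at 145 ± 25.5 TPM (SD, n = 6), summed over full-length and short transcripts. It was followed by *Sgca*, encoding the α-sarcoglycan typical of striated muscle, at 104 ± 6.82 TPM (SD, n = 6). *Utrn*, encoding utrophin, the autosomal relative of dystrophin, was at 82.1 ± 3.57 TPM (SD, n = 6). For the main full-length transcripts alone, *Dmd* lay below *Utrn*. Dmd-203 averaged 22.2 TPM in Pax7WT and 24.0 TPM in Pax7KR cells, against 51.0 and 49.1 TPM for Utrn-201. *Sgce*, encoding ε-sarcoglycan, which stands in for α-sarcoglycan in many non-muscle tissues, was at 68.3 ± 7.71 TPM (SD, n = 6). *Sgcb*, encoding β-sarcoglycan, was at 42.3 ± 3.36 TPM (SD, n = 6). *Sntb1*, encoding β1-syntrophin, was at 10.3 ± 3.13 TPM (SD, n = 6). *Dtna*, encoding α-dystrobrevin, was at 1.3 ± 0.639 TPM (SD, n = 6), and *Sgcd*, encoding δ-sarcoglycan, at 0.322 ± 0.253 TPM (SD, n = 6). Between neighbours in this order the ranges over libraries overlapped for 2 pairs, *Utrn* with *Sgce* and *Dtna* with *Sgcd*, and in each of these the higher gene led in 5 of 6 libraries. The other neighbours did not overlap.

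**Figure D1:**
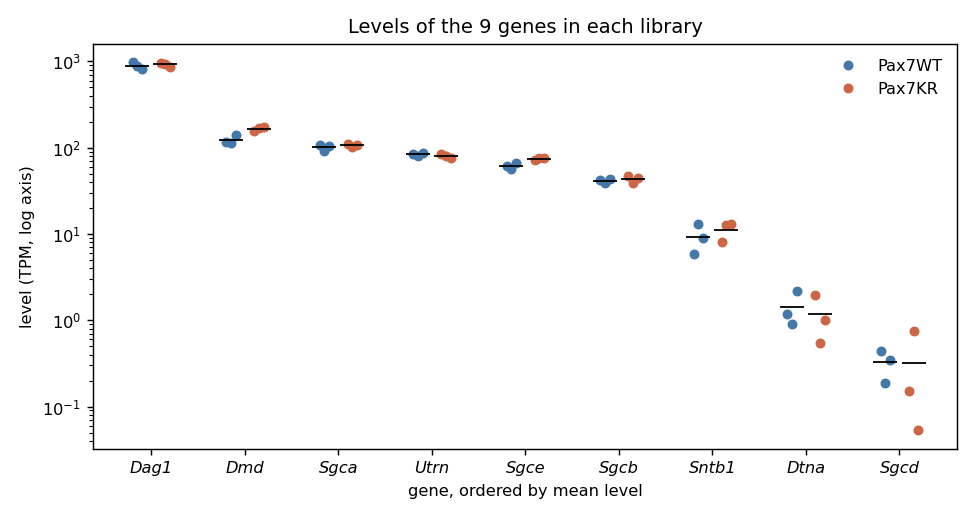
Level of each of the 9 genes in TPM on a log axis, with 1 point per library (blue, Pax7WT, orange, Pax7KR) and a bar at the mean of each genotype. *Dag1* lies between 819 and 974 TPM, *Dmd*, *Sgca*, *Utrn*, *Sgce* and *Sgcb* lie between 38.5 and 172 TPM, *Sntb1* lies between 5.83 and 13.2 TPM, and *Dtna* and *Sgcd* lie at or below 2.18 TPM.

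All 9 genes passed the filter of 5 or more reads in 2 or more libraries, and 0 of them passed an adjusted p of 0.1 in edgeR's quasi-likelihood test over 17152 genes. The background was the same, since 0 genes in all were called, which is 0.0%, and the smallest adjusted p was 0.302. An unadjusted p under 0.05 was found for 2 of the 9, *Dmd* and *Sgce*, against 803 of all genes, or 4.68%. Of the 9 log2 fold changes, taken as Pax7KR minus Pax7WT, 4 were positive and 5 negative, with a median of −0.038 against −0.00375 over all genes. In CPM the genotypes overlapped for each of the 9 genes, while 5.14% of all genes had every Pax7KR value above every Pax7WT value and 5.19% had every one below.

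**Figure D2:**
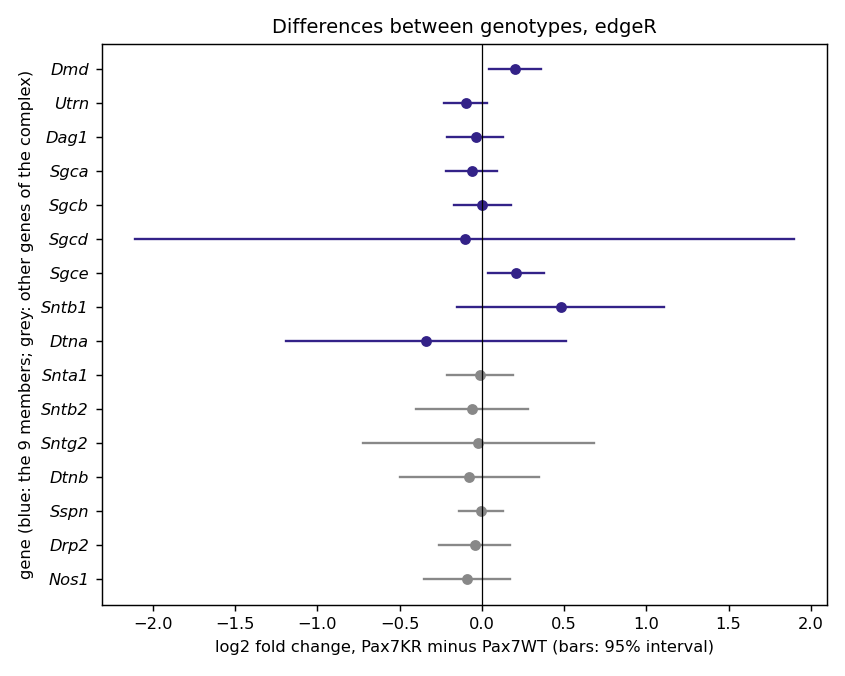
Log2 fold change between genotypes from edgeR (points) with its 95% interval (bars) for the 9 genes (blue) and 7 other genes of the complex (grey). The intervals of *Dmd* (0.04 to 0.36) and *Sgce* (0.04 to 0.38) lie above 0 and the others include 0, and no adjusted p is under 0.1.

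Among the genes that link to the cytoskeleton, *Dmd* had the higher values in Pax7KR cells. It was at 362, 348 and 403 CPM in the Pax7WT libraries and at 423, 401 and 458 CPM in the Pax7KR libraries. Pax7KR replicate 2 lay just below Pax7WT replicate 3, and all other Pax7KR values were above the Pax7WT values. The log2 fold change was 0.20 (SE 0.07, unadjusted p = 0.016, edgeR adjusted p = 0.992), and without Pax7KR replicate 2 it was 0.25 (edgeR adjusted p = 1.0). In TPM, where a read on a short transcript weighs more, the genotypes did not overlap, at 117, 114 and 139 TPM against 157, 169 and 172 TPM. With the average transcript length of each library as an offset, the log2 fold change was 0.37, with an adjusted p = 0.0856 from DESeq2 and of 0.762 from edgeR. DESeq2 with this offset called 0.334% of the genes it tested, and *Dmd* was the 1 member among them. This call did not hold up to leaving out libraries. The adjusted p was 0.524 without Pax7KR replicate 2, at a log2 fold change of 0.37, and it passed 0.1 in 1 of 6 cases, at 0.00145 without Pax7WT replicate 3. It was 0.45 without Pax7WT replicate 1, 0.276 without Pax7WT replicate 2, 0.116 without Pax7KR replicate 1 and 0.318 without Pax7KR replicate 3. *Utrn* was at 512, 493 and 514 CPM in Pax7WT and at 493, 468 and 457 CPM in Pax7KR libraries. Its log2 fold change of −0.099 had a 95% interval of −0.23 to 0.03 (edgeR, adjusted p = 0.992).

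In these libraries *Dmd* had a lower share of its reads on the full-length transcript in Pax7KR than in Pax7WT cells. Of the reads on *Dmd*, the share on the full-length transcript, defined as a coding sequence of at least 80% of the longest, was 55.4%, 54.8% and 57.0% in the Pax7WT libraries. In the Pax7KR libraries it was 51.8%, 49.2% and 48.1%. Each Pax7KR share lay below each Pax7WT share, and the means differed by −6.02 percentage points (exact two-sided permutation test, n = 3 per group, p = 0.1, the smallest that 3 against 3 libraries can give). Counted in TPM, the share was 18.1% ± 0.419 (SD, n = 3) in Pax7WT and 14.5% ± 1.34 (SD, n = 3) in Pax7KR cells, again without overlap. Without Pax7KR replicate 2 the difference in the share of reads was −5.80 points. How often such a share separates the genotypes over all genes was not tested.

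Of the transcripts that start at the internal promoter, Dmd-201 held the most reads. This short transcript, whose window is the GC-richer of the 2 printed above, was at 131.5, 129.4 and 135.5 CPM in Pax7WT libraries and at 170.5, 162.9 and 194.5 CPM in Pax7KR libraries. All Pax7KR values lay above all Pax7WT values, as was the case for 5.21% of the 54853 transcripts tested. The full-length Dmd-203 was at 202, 190.3 and 229 CPM in Pax7WT and at 221, 198 and 219 CPM in Pax7KR libraries, and its values overlapped. In an edgeR test over all transcripts Dmd-201 differed by 0.41 on the log2 scale (SE 0.08, adjusted p = 0.920) and Dmd-203 by 0.038 (SE 0.09, adjusted p = 1.0). The interval was 0.22 to 0.61 for Dmd-201 and −0.17 to 0.25 for Dmd-203. When single libraries were left out, Dmd-201 ran from 0.34 to 0.47, and it was 0.47 without Pax7KR replicate 2. The edgeR test called 0 transcripts in all, or 0.0%, and 4.01% had an unadjusted p under 0.05, which for Dmd-201 was 0.00178. DESeq2 on the same transcripts gave Dmd-201 an adjusted p = 0.000176 and called 1.37% of transcripts. Its adjusted p was 8.26e-06 without Pax7KR replicate 2 and at most 0.00571 in 6 of 6 cases with single libraries left out. Both tests take the estimated reads as counts and leave out the error of sharing reads between transcripts. Of the bases of Dmd-201, 98.9% lie in exons of Dmd-203, and 0 of its 4405 sequences of 31 bases are found in no other *Dmd* transcript, while 43.9% of those of Dmd-203 are found in that transcript alone. The estimate for Dmd-201 thus rests on how reads over the shared 3′ exons compare with reads over the exons upstream, and on the first exon it shares with other internal transcripts. Endothelial marker sums per library, in the same order, were 192, 211 and 272 TPM and 289, 343 and 227 TPM, which overlap. The fibro-adipogenic sums, at 2074, 1940 and 2031 TPM and 2239, 2163 and 2076 TPM, did not overlap, with 2074 TPM next to 2076 TPM. Of the 12 fibro-adipogenic genes, 6 had a positive and 6 a negative log2 fold change, with a median of −0.00488. The part of either list in the values of Dmd-201 was not tested. Even if the estimate is taken as it stands, more cells with the short transcript and more of it per cell cannot be told apart in bulk libraries. Whether coverage of the 3′ exons against the upstream exons differed between libraries for another reason was not tested.

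**Figure D3:**
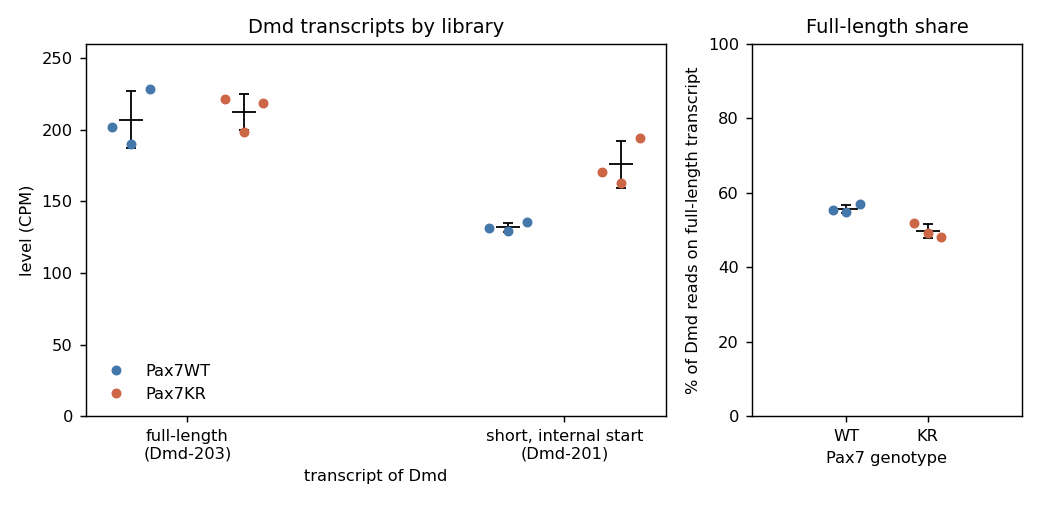
Left, level in CPM of the full-length and the short transcript of *Dmd* in each library, and right, the percentage of *Dmd* reads on the full-length transcript (points, libraries, bars, mean and SD, n = 3). The genotypes overlap for Dmd-203, while for Dmd-201 the Pax7KR values (163 to 194 CPM) lie above the Pax7WT values (129 to 136 CPM) and the full-length share lies below (48.1% to 51.8% against 54.8% to 57.0%).

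Other *Dmd* transcripts carried few reads. Dmd-202, a coding transcript with the same start as Dmd-201, was at 5.22, 3.38 and 4.03 CPM in Pax7WT and 2.61, 4.37 and 3.80 CPM in Pax7KR libraries, which overlapped, and its log2 fold change of −0.23 (SE 0.31, edgeR adjusted p = 1.0) had the opposite sign to that of Dmd-201. Dmd-207, a retained-intron transcript that starts near Dmd-201, was at 2.30, 5.19 and 3.49 CPM against 5.75, 4.71 and 8.69 CPM, which overlapped. Its log2 fold change was 0.80 (SE 0.39, edgeR unadjusted p = 0.084), with the sign of Dmd-201. Also starting near there, Dmd-206 was at 0.93 (SE 1.16) and Dmd-213 at 0.19 (SE 0.18) on the log2 scale. Dmd-204, a non-coding transcript of 596 bases at the 3′ end, was at 14.9, 18.5 and 28.6 TPM in Pax7WT and at 27.9, 42.7 and 33.7 TPM in Pax7KR libraries, which overlapped. Dmd-213, a retained-intron transcript that also starts near the internal promoter, was at 22.5, 17.1 and 27.3 TPM in Pax7WT and 26.4, 26.5 and 26.8 TPM in Pax7KR libraries. Dmd-204 and Dmd-213 together with Dmd-201 make up most of the TPM of *Dmd*, in which they weigh more than in reads.

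*Utrn*, on chromosome 10 (12382188 to 12869365, minus strand), did not differ detectably in its share of full-length reads. The share was 85.3%, 86.8% and 88.6% in Pax7WT and 86.3%, 87.1% and 87.9% in Pax7KR libraries (exact two-sided permutation test, n = 3 per group, p = 0.9). The main full-length transcript, Utrn-201, was at 394, 382 and 412 CPM in Pax7WT and at 372, 364 and 358 CPM in Pax7KR libraries, without overlap. Its log2 fold change was −0.12 (SE 0.05, unadjusted p = 0.0554, edgeR adjusted p = 1.0), and 4.65% of all transcripts had every Pax7KR value below every Pax7WT value. The other full-length transcript, Utrn-205, starts 7.6 kb upstream and overlapped between genotypes.

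A minor short transcript of *Utrn* was listed at 0 in each Pax7KR library. Utrn-204, of 3161 bases, has 25 exons, a start 246.9 kb inside the gene and a coding sequence of 28.8% of the longest. It was given 243, 119 and 84 reads in the Pax7WT libraries and 0, 0 and 0 in the Pax7KR libraries. The adjusted p was 0.438 from edgeR and 8.63e-11 from DESeq2. Of its sequences of 31 bases, 10.8% are found in no other *Utrn* transcript. Reads that cover none of these can also be given to others, and whether this played a part in the 0 was not tested. The short transcript Utrn-206 was at 60.9, 51.3 and 47.2 CPM in Pax7WT and 61.3, 54.6 and 51.0 CPM in Pax7KR libraries, which overlapped.

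**Figure D4:**
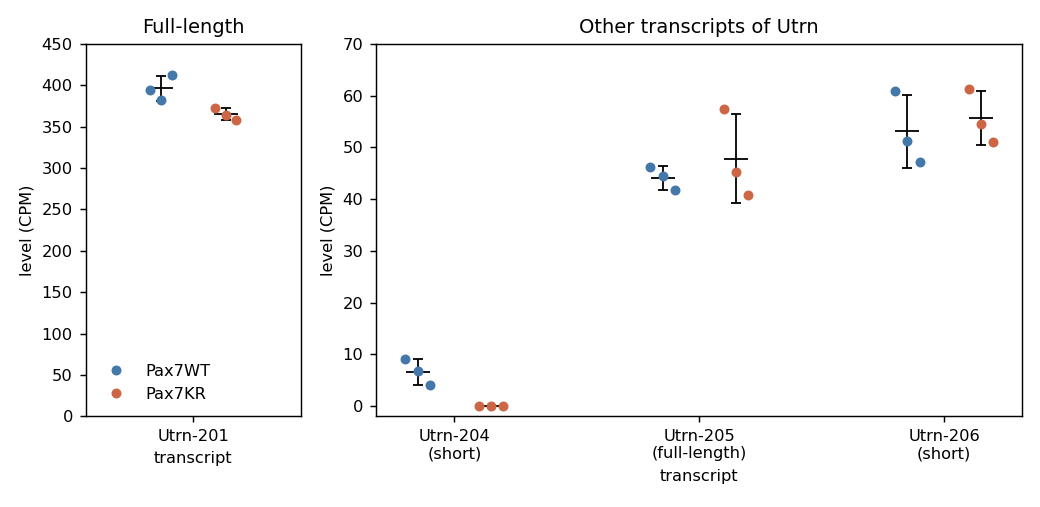
Level in CPM of 4 transcripts of *Utrn* in each library (points, libraries, bars, mean and SD, n = 3). Utrn-201 lies at 382 to 412 CPM in Pax7WT and 358 to 372 CPM in Pax7KR libraries, Utrn-205 and Utrn-206 overlap, and Utrn-204 lies at 4.08 to 9.0 CPM in Pax7WT and at 0 in Pax7KR libraries.

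Summed over its transcripts, the gene of dystroglycan differed by less than the spread between libraries. *Dag1*, on chromosome 9 (108204634 to 108263958, minus strand), was at 2792, 2579.7 and 2373 CPM in Pax7WT and at 2588, 2546 and 2409.5 CPM in Pax7KR libraries. The Pax7KR values lay inside the Pax7WT range. The log2 fold change was −0.038 with an interval of −0.21 to 0.13 (edgeR, adjusted p = 0.998).

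Of the sarcoglycans, 0 were called, *Sgce* had the smallest unadjusted p, and *Sgcd* was barely detected. *Sgce*, on chromosome 6 (4674350 to 4747207, minus strand), was at 59.6, 55.9 and 66.5 CPM in Pax7WT and 66.4, 69.4 and 74.6 CPM in Pax7KR libraries. The groups overlapped at Pax7WT replicate 3 and Pax7KR replicate 1. The log2 fold change was 0.21 (SE 0.08, unadjusted p = 0.0204, edgeR adjusted p = 0.992) and ran from 0.15 to 0.28 when single libraries were left out. *Sgcb*, on chromosome 5 (73632749 to 73647790, minus strand), was at 92.9, 82.8 and 90.8 CPM against 92.8, 78.4 and 95.7 CPM. Its log2 fold change of 0.000732 had an interval of −0.17 to 0.18. *Sgca*, on chromosome 11 (94962791 to 94976327, minus strand), was at 61.4, 55.6 and 54.1 CPM in Pax7WT and 56.6, 53.7 and 53.8 CPM in Pax7KR libraries, and the values overlapped. Its 2 transcripts with the full coding length had log2 fold changes of opposite sign. Sgca-201 was at 51.7, 47.6 and 44.9 CPM in Pax7WT and 43.2, 42.7 and 41.9 CPM in Pax7KR libraries, while Sgca-202 was at 3.63, 3.55 and 1.60 CPM against 7.21, 5.13 and 4.79 CPM. Neither passed the test (adjusted p = 1.0 for both from edgeR, unadjusted p = 0.0616 and 0.0461). *Sgcd*, on chromosome 11 (46896253 to 47988969, minus strand), had 11, 3 and 5 reads in Pax7WT and 3, 14 and 1 reads in Pax7KR libraries. A count of 3 reads corresponds to 0.108 CPM in the deepest and 0.169 CPM in the shallowest library, and with an interval of −2.11 to 1.90 on the log2 scale no difference could be detected at this depth.

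The 2 genes of proteins that bind dystrophin from the inside were low, and their values spread widely. *Sntb1*, on chromosome 15 (55636388 to 55906949, minus strand), was at 16.3, 23.8 and 25.5 CPM in Pax7WT and 21.6, 33.4 and 36.3 CPM in Pax7KR libraries. In CPM, Pax7KR replicates 2 and 3 were the highest of the 6 libraries, and Pax7KR replicate 1 lay among the Pax7WT values. In TPM, Pax7WT replicate 2 was the highest, at 13.2 TPM, against 12.8 and 12.9 TPM in Pax7KR replicates 2 and 3. The log2 fold change of the gene was 0.48 (SE 0.26, edgeR adjusted p = 0.992), and it ranged from 0.30 without Pax7WT replicate 1 to 0.68 without Pax7KR replicate 1. With the transcript length offset it was 0.23 in edgeR. *Dtna*, on chromosome 18 (23415135 to 23659715, plus strand), had 86, 39 and 38 reads in Pax7WT and 68, 42 and 21 reads in Pax7KR libraries. The log2 fold change was −0.34 (SE 0.39, edgeR adjusted p = 0.998). The share of its reads on transcripts of the long coding class was 91.7%, 84.1% and 81.3% in Pax7WT and 74.4%, 79.8% and 53.8% in Pax7KR libraries (exact two-sided permutation test, n = 3 per group, p = 0.1, the smallest possible). The shares did not overlap, but they rest on at most 86 reads, and at a limit of 60% of the coding length the difference went from −16.4 to −6.80 points (exact permutation test, p = 0.8). An exon of the gene *Gm47898* on the opposite strand covers 0.5% of the exonic bases of *Dtna*, and none of the other 8 genes overlaps an exon of another gene.

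Across the 9 genes, 52 of their 70 deposited transcripts could be tested, and 3 had an unadjusted p under 0.05, which were Dmd-201, Utrn-204 and Sgca-202, against 4.01% of all transcripts. Every Pax7KR value was above every Pax7WT value for 4 of them, which were Dag1-207 and Sgce-209 beside Dmd-201 and Sgca-202, against 5.21% of all transcripts. The reverse held for 4, which were Utrn-201, Utrn-204, Sgca-201 and Dtna-203, against 4.65%.

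Of 11 other genes of the complex, 8 could be tested and 0 were called, and all 8 log2 fold changes were negative, with a median of −0.0527. *Drp2*, encoding dystrophin-related protein 2, known from Schwann cells, was at 184 to 233 TPM, above *Dmd* (114 to 172 TPM) on this scale, which is per length. Its log2 fold change was −0.044 (SE 0.10, edgeR adjusted p = 0.998). *Sspn*, encoding sarcospan, was at 57.1 to 66.3 TPM with a log2 fold change of −0.00612. *Nos1*, the neuronal nitric oxide synthase bound by syntrophin in fibres, was at 2.11 to 2.44 TPM with a log2 fold change of −0.091. *Sgcz* and *Sntg1* had 0 reads in all 6 libraries, which allows up to 0.169 CPM in the shallowest, and *Cav3*, the muscle caveolin, had at most 2. The summed Schwann cell markers were at 80 to 123 TPM over the libraries, and their part in the level of *Drp2* was not tested.

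Of the enzymes that place the laminin-binding sugars on α-dystroglycan, 18 of 18 passed the filter on low reads and 0 were called. There were 9 positive and 9 negative log2 fold changes, with a median of −0.0041. *Large2*, among the negative ones, was barely detected, at 3 to 14 reads per library. *Dpm1*, which makes the mannose donor, was at −0.20 (SE 0.12) and *Pomt1*, which adds the first mannose, at 0.16 (SE 0.11) on the log2 scale, each with an adjusted p = 0.992 from edgeR. *Dpm3* and *Dpm2*, partners of *Dpm1*, had the highest levels, at 120.0 and 50.4 TPM on average.

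Among 11 ligands of dystroglycan and of the complex outside the cell, 10 were tested, 0 were called, and 2 had an unadjusted p under 0.05. *Bgn*, encoding biglycan, which binds dystroglycan and sarcoglycans, was at 329 ± 16.0 CPM (SD, n = 3) in Pax7WT and 276 ± 32.5 CPM (SD, n = 3) in Pax7KR cells. Its log2 fold change was −0.25 (SE 0.08, unadjusted p = 0.0085, edgeR adjusted p = 0.992), and Pax7KR replicate 1, at 312.8 CPM, touched Pax7WT replicate 3, at 312.6 CPM. *Slit2*, a guidance factor with a laminin G domain, was at 8.34, 7.45 and 7.75 CPM in Pax7WT and 8.70, 10.1 and 11.5 CPM in Pax7KR libraries, without overlap, with a log2 fold change of 0.36 (SE 0.16, unadjusted p = 0.036, edgeR adjusted p = 0.992). *Hspg2*, encoding perlecan, and *Lama2*, encoding the laminin α2 chain of muscle, had lowest levels of 186 and 134 TPM over the libraries and log2 fold changes of 0.016 and −0.068.

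Of 10 cytoskeletal linkers, 9 were tested and 0 called. *Ank2*, encoding an ankyrin that helps to place dystrophin at the membrane, was at 90.9, 108.5 and 86.2 CPM in Pax7WT and 84.2, 83.4 and 76.4 CPM in Pax7KR libraries, without overlap. Its log2 fold change was −0.23 (SE 0.08, unadjusted p = 0.0199, edgeR adjusted p = 0.992). *Ank3* was at −0.18 (SE 0.10) and *Synm*, encoding the intermediate filament protein synemin, at −0.29 (SE 0.20), each with an adjusted p = 0.992 from edgeR, and with the transcript length offset they were at −0.091 and −0.44. The cytoplasmic actins *Actg1* and *Actb*, to which dystrophin binds, were at 1678 and 1437 TPM on average, with log2 fold changes of 0.063 and −0.034.

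The polarity and signalling partners of dystrophin in satellite cells were likewise not called, with 0 of 11 tested. *Mark2* was at 98.9, 97.3 and 93.7 CPM in Pax7WT and 101.8, 103.4 and 99.7 CPM in Pax7KR libraries. These values did not overlap, but the log2 fold change was 0.072 with an interval of −0.055 to 0.20. *Mapk12*, encoding p38γ, was at 0.082 (SE 0.13) and *Carm1* at −0.042 (SE 0.06) on the log2 scale, each with an adjusted p = 0.998 from edgeR. *Vangl2*, a planar polarity gene, was at 20.7, 19.5 and 18.5 CPM in Pax7WT and 18.2, 16.7 and 18.2 CPM in Pax7KR libraries, without overlap, with a log2 fold change of −0.14 (SE 0.10). With the transcript length offset it was at −0.52 (SE 0.13, edgeR adjusted p = 0.762, DESeq2 adjusted p = 0.15), and in TPM it was at 9.55, 9.59 and 8.25 against 7.12, 7.11 and 5.74. The same offset put *Mapk12* at −0.089 in edgeR, the opposite sign. *Pard6a* and *Prkci*, of the PAR complex, were at 0.34 (SE 0.24) and −0.10 (SE 0.08), and *Prkci* was at 0.00147 with the length offset in DESeq2. *Myf5*, the target of this pathway, was at 428 ± 12.8 CPM (SD, n = 3) in Pax7WT and 435 ± 29.0 CPM (SD, n = 3) in Pax7KR cells.

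Over the 6 libraries, the genes whose log2(CPM + 1) followed *Dmd* most closely among 9521 genes with a mean of at least 10 CPM were *Rnf169* (Pearson r = 0.995), *Ptdss1* (r = 0.990) and *Plekhb1* (r = 0.989). *Rnf169* was at 45.4, 44.9 and 48.4 CPM in Pax7WT and 49.9, 48.1 and 51.5 CPM in Pax7KR libraries. The points share their library sizes, and with so many genes and 6 libraries such values are a description.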

How the data were processed

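RNA-sequencing covered 3 Pax7WT and 3 Pax7KR libraries, grouped by their labels. The authors quantified paired reads of a directional library with salmon (version 1.3.0) against GENCODE transcripts of GRCm38 and deposited estimated counts per transcript, which are not normalized, and TPM values. Fold changes and p-values that the authors deposited from DESeq2 (version 1.28.1) were not used. The genes and lists were chosen with earlier results of these data known. Of each list the 3 genes with the smallest unadjusted p and the 2 with the highest TPM are named, beside *Mark2*, *Mapk12*, *Carm1*, *Pax7* and the 3 genes most like *Dmd*. Some genes under this rule are not reported here. The markers, X- and Y-linked genes and transcripts named beyond this rule were chosen after their values were seen.

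Estimated counts were summed per gene through GENCODE release M21 of the same build, which matched 99.15% of transcripts, and rounded. Unmatched transcripts held 0.606% of reads. Depth was 17822367 to 27908054 reads, and the biological coefficient of variation was 13.8%. The test required at least 5 reads in at least 2 libraries and used edgeR (version 4.0.16, TMM, robust quasi-likelihood test, genotype alone, Benjamini-Hochberg adjustment, threshold 0.1). Standard errors come from the F statistic. DESeq2 (version 1.42.0), a length offset, other filters, a replicate block and leaving out each library were alternatives. Tests over transcripts were added after seeing the data. The edgeR and DESeq2 tests over genes were tried on simulated data with known changes. Analyses ran in R (version 4.3.3) and Python (version 3.11.15) with scipy (version 1.17.1). Intervals are at 95% and counts of 3 reads cover counting error only. The chi-square per gene was at least 10.2 in each of 15 library pairs, so none was deposited in duplicate.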

Additional observations from a re-analysis of the deposited data

How the results depend on the processing

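The count of genes called, 0 with edgeR against 803 with an unadjusted p under 0.05, was 0 with RLE normalization, with at least 10 reads in every library, with edgeR and the transcript length offset and at a threshold of 0.05. It was 30 with DESeq2, 45 with DESeq2 and the length offset, 157 with no filter and 13 with the replicate block, and ran from 1 to 32 when single libraries were left out, the highest without Pax7KR replicate 3. The replicate numbers are shared by the genotypes, but same-numbered libraries did not deviate together (correlations of 0, 0.06 and −0.06), so the block has no pairing behind it, and under it 0 of the 9 genes were called. *Sntb1* then had an adjusted p of 0.266. Members called were 0 in each alternative but DESeq2 with the length offset, where it was 1, *Dmd*, at a log2 fold change of 0.37, and that call held in 1 of 6 fits with single libraries left out, which were added after seeing the data and gave 0.32 to 0.46. The 13 alternatives planned for each of these genes include DESeq2 with the length offset but not those 6 added fits. Over the 13, *Dmd* stayed between 0.15 and 0.37, *Sgce* between 0.15 and 0.28, *Sntb1* between 0.22 and 0.68, *Utrn* between −0.13 and −0.074 and *Dtna* between −0.80 and −0.03.

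Directions that turned belong to genes near 0 or with few reads, and for these the cause was not tested. *Sgca* was at 0.00019 and 0.000104 with the length offset in DESeq2 and edgeR. *Sgcb* was at −0.00153 with the replicate block, −0.0476 without Pax7WT replicate 2, −0.0313 without Pax7KR replicate 1 and −0.0535 without Pax7KR replicate 3, but 0.0842 without Pax7KR replicate 2. *Dag1* was at 0.0217 without Pax7WT replicate 1 and −0.0952 without Pax7WT replicate 3. *Sgcd* was at 0.31, 0.20 and 0.36 without Pax7WT replicate 1, Pax7KR replicate 1 and Pax7KR replicate 3, and at −1.57 without Pax7KR replicate 2. The full-length transcript Dmd-203 was at −0.0192 without Pax7WT replicate 2 and 0.12 without Pax7WT replicate 3. The difference in the full-length share of *Utrn* ran from −0.608 to 1.05 points when single libraries were left out, and that of *Dmd* between −7.06 and −5.22 points. That of *Dtna* lay between −21.6 and −8.62 points. The 95% intervals of 7 of the 9 genes include 0, and the sharing of reads between overlapping transcripts adds an error that the files do not give.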
